A study of Mus musculus with 29 samples.

Results

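Mitochondria make part of their own respiratory chain. The 13 protein-coding genes of the mouse mitochondrial genome encode core subunits of complex I (ND1, ND2, ND3, ND4, ND4L, ND5 and ND6), of complex III (CYTB), of complex IV (COX1, COX2 and COX3) and of the ATP synthase (ATP6 and ATP8). All are transcribed inside the organelle as long precursor RNAs by the polymerase Polrmt with the packaging factor Tfam. Their messages are read by a separate ribosome whose RNAs come from the same small genome, while its proteins are encoded in the nucleus, made in the cytosol and imported. Both brown fat, which burns fuel for heat, and muscle are rich in mitochondria.

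Both gene sets were taken from a table of 24770 gene symbols. The mitochondrial genome transcripts were the 13 genes above, and the mitochondrial ribosomal protein genes were the 77 symbols that start with Mrpl (48 genes, large subunit) or Mrps (29 genes, small subunit), 90 genes in all. Neither choice used a measured value, and all 90 passed the filter on low counts in every comparison. The ribosomal RNAs of the mitochondrial genome were not analysed here.

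RNA-seq was performed on brown adipose tissue (BAT) and gastrocnemius muscle, a calf muscle (SkM), of young adult male wild-type C57BL/6J mice. Control mice ate chow freely and were sedentary, the CR group received calorie restriction with food lowered step by step, the EX group was trained on a treadmill and ate freely, and the CREX group had both. All mice were fasted before harvest, and trained mice were killed a day after the last bout, so that the training values describe that time only. BAT had 3 control, 4 CR, 4 EX and 4 CREX libraries, and SkM had 4 control, 3 CR, 4 EX and 3 CREX libraries, 29 in all. No label names the animal behind a library, so p-values measure the spread between these libraries.

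Depth was similar throughout, with 21047242 to 24919377 counts per BAT library and 23050918 to 23425284 per SkM library, so that 3 counts correspond to 0.12 to 0.143 CPM (counts scaled to the same total in every library). Levels below are CPM scaled within each tissue by the trimmed mean of M values (TMM). The 12 brown adipocyte markers summed to 10810 to 15990 CPM in BAT and to 136.5 to 422.5 CPM in SkM. The 12 skeletal muscle fibre markers summed to 135100 to 233000 CPM in SkM, and in BAT they ranged from 47.65 to 7436 CPM with wide differences inside every group. The 9 markers of slow fibres, the oxidative fibre type that holds many mitochondria, ranged from 47.9 to 2159 CPM in SkM. Fewer cells of a type and less RNA per cell cannot be told apart in such bulk samples.

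Sequence decides how well a mitochondrial transcript can be counted. ATP8 is shown because its coding sequence overlaps that of ATP6, with which it shares 1 messenger RNA. It lies at chrM:7766-7969 on the plus strand of the GRCm38 mitochondrial genome, and the capitals mark the 43 bases, chrM:7927-7969, that also open the ATP6 reading frame.
ATP8: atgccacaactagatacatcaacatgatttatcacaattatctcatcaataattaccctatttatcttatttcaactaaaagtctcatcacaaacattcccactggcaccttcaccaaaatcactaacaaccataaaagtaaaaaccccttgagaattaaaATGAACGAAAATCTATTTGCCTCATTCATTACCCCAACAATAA
ATP8 is 204 bases long and received 220 to 1149 counts per library, against 480602 to 1369189 for ATP6, so its values were noisy and the division of reads between the pair is uncertain. ND4L and ND4 share 7 bases, and ND5 shares 14 bases with ND6, which lies on the opposite strand. Whether reads were counted by strand is not given in the sources used here, so ND5 and ND6 reads in that stretch could not be told apart. For the same reason, RNA from the strand opposite ND6 could have been counted along the rest of that gene.

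Among the Mrp genes, 68 of 77 had a RefSeq promoter window (GRCm38.p6) that runs from 250 bases before to 50 bases after the transcript start. The windows were searched on both strands for the letters GCGCANGCG, bound by NRF1, an activator of nuclear genes for respiration, CCGGAAG, bound by ETS factors such as GABP, and AANATGGCG, bound by YY1. NRF1 letters stood in 16 windows (23.5%), ETS letters in 24 (35.3%) and YY1 letters in 10 (14.7%), and 41 windows (60.3%) held at least 1 of these. Among all 32851 windows the shares were 6.25%, 8.86%, 2.38% and 15.4%. A match is a run of letters and not a measured binding site. NRF1 letters stood in 1 of 7 windows of the Mrp genes called higher in BAT CR against control. They stood in 3 of 8 windows of those called lower in SkM CREX against EX. Any of the searched letters stood in 42.9% and 62.5% of these windows. A link between letters and changes was not tested. The windows of Mrps9 and Mrpl14 are shown as examples of called genes that hold the NRF1 letters, here in capitals. Mrps17, the Mrp gene that rose in both BAT comparisons of restriction, is shown as a window with none of these letters.
Mrps9, chr1:42850983-42851282, plus strand: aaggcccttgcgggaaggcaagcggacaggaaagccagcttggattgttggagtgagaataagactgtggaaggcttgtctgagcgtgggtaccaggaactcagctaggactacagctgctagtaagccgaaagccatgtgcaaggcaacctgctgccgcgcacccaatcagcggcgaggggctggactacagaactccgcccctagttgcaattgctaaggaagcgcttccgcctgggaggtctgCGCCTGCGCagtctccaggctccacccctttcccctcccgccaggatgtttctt
Mrpl14, chr17:45686099-45686398, plus strand: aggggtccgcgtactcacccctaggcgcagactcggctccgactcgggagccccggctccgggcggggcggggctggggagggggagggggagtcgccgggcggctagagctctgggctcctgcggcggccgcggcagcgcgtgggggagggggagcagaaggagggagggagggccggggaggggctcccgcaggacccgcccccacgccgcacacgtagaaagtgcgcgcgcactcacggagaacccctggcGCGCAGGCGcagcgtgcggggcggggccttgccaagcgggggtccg
Mrps17, chr5:129715247-129715546, plus strand: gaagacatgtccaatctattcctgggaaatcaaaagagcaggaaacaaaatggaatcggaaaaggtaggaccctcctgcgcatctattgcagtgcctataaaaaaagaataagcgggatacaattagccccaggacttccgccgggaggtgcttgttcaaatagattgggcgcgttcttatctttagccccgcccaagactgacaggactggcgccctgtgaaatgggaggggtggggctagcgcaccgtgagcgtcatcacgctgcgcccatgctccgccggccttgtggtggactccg

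The mitochondrial genome supplied a large part of all counts. In BAT the 13 transcripts took 41.47% to 45.92% of a library's counts, and the ranges of all 4 groups lay within these few points. The lowest, middle and highest BAT control libraries stood at 44.89%, 45.3% and 45.9%, and the 4 CR libraries ran from 41.47% to 44.32%. In SkM the control libraries stood at 36.76%, 37.19%, 35.95% and 33.33%, and the EX libraries ranged from 33.49% to 35.7%. The SkM CR libraries were lower, at 21.17%, 23.98% and 23.55%. The SkM CREX libraries stood at 27.3%, 18.45% and 19.59%. No restricted SkM library reached the lowest library on free feeding, whether trained or not.

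The 77 Mrp genes together made up a far smaller share. In BAT 0.3344% to 0.4029% of a library's counts were theirs, and in SkM 0.2319% to 0.301%. SkM CR libraries ranged from 0.2527% to 0.296%, inside the range of SkM controls. These are shares of a total that includes the mitochondrial transcripts themselves. Per count outside the mitochondrial genome, mitochondrial transcripts gave 0.5 to 0.5922 counts in SkM controls and 0.2686 to 0.3155 in SkM CR. On the same base the Mrp genes took 0.3478% to 0.4759% in SkM controls and 0.3324% to 0.3755% in SkM CR, which overlapped. They took 0.3769% to 0.4006% in SkM EX and 0.2907% to 0.3561% in SkM CREX, with every CREX library below every EX library.

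**Figure D1:**
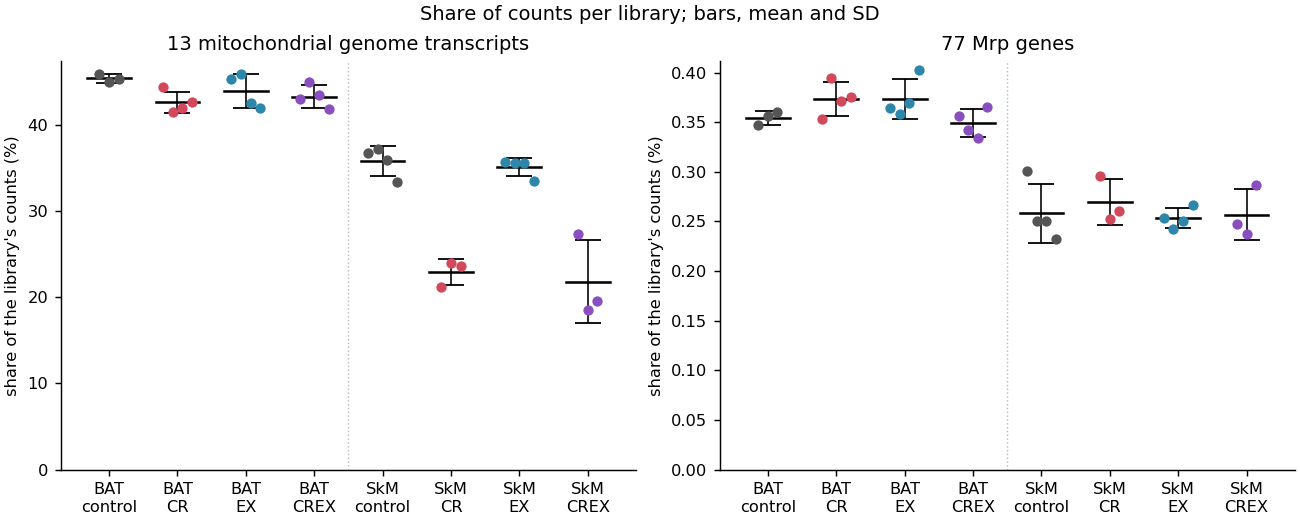
Share of each library's counts (%) from the 13 mitochondrial genome transcripts and from the 77 Mrp genes, in the 8 groups. Points are libraries, with the mean and SD in black. The 6 SkM CR and CREX libraries lie between 18.45% and 27.3% on the left, below all other SkM libraries, while the Mrp shares of the SkM groups overlap.

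Levels per kilobase of coding sequence rank the 13 genes as they were counted. How reads were divided between overlapping neighbours is not known, for ATP8 and ATP6 and also for ND4L and ND4. The places of these genes are therefore uncertain. In SkM controls the mean level was highest for COX1, at 62500 CPM per kilobase, followed by ATP6 (55900), COX2 (53500) and COX3 (51300). ND1 (37800), CYTB (30400), ND4 (30100) and ND2 (21500) were intermediate. ND3 (11100), ND5 (9730), ND6 (5270) and ND4L (5150) were low, and ATP8 was listed at 155 CPM per kilobase. In BAT controls COX2 (81300), ATP6 (78600) and COX1 (71600) led, and ND4L (5830) and ND6 (4060) stood lowest apart from ATP8. The complex IV and ATP6 messages were thus more abundant per length than most complex I messages in both tissues, and neighbours in these orders were not tested against each other.

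Calorie restriction alone was compared with free feeding first in SkM. Of the 13 mitochondrial genome transcripts, 12 fell, each beyond 1.5-fold, with log2 fold changes from -0.62 for COX1 to -1.19 for ND2 and a median of -0.91 over the 13. Of the 77 Mrp genes none was called, with a median of -0.07 that ran from -0.21 to 0.06 over the alternatives. The test was the quasi-likelihood test of edgeR, a model of counts, with a call at a Benjamini-Hochberg adjusted p under 0.05 over all genes tested. As background, 7.67% of 13173 genes fell and 6.29% rose by this rule, and 5.32% fell beyond 1.5-fold. The median of all genes was 0.00.

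The complex I messages are given first, and transcripts were not tested against each other. ND2, a core membrane subunit, stood at 20440, 25180, 23640 and 20200 CPM in the control libraries and at 8508, 10870 and 10030 CPM under CR. No CR library came near a control, and ND2 fell by 1.19 on the log2 scale (SE 0.14, adjusted p = 0.00087). ND4L, another membrane subunit, read 1602, 1568, 1480 and 1475 CPM in controls and 654.7, 805.2 and 801.3 CPM under CR, with a log2 fold change of -1.02 (SE 0.12, adjusted p = 0.00087). ND6, the only protein-coding gene on the other strand, read 2258, 3123, 3032 and 2533 CPM in controls and 1175, 1670 and 1427 CPM under CR. It fell by 0.94 on the log2 scale (adjusted p = 0.00478), beside a fall of 0.95 for its neighbour ND5 (adjusted p = 0.00509). ND1 (-0.91), ND3 (-0.99) and ND4 (-0.89) also fell, with adjusted p of 0.0025, 0.0125 and 0.00205.

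The messages of complexes III and IV and of ATP6 also fell. COX1, the catalytic core of complex IV, read 102900, 103300, 95770 and 84250 CPM in controls and 63970, 62960 and 60790 CPM under CR. The groups did not overlap, and the log2 fold change was -0.62 (SE 0.13, adjusted p = 0.0124). COX2 fell by 0.82 and COX3 by 0.71 on the log2 scale (adjusted p = 0.00674 and 0.0179). CYTB, the mitochondrially encoded subunit of complex III, fell by 0.81 (adjusted p = 0.00406) and ATP6, part of the proton channel of the ATP synthase, by 0.73 (adjusted p = 0.0118). ATP8 read 52.85, 26.9, 21.31 and 25.66 CPM in controls and 10.44, 9.603 and 22.07 CPM under CR. These groups overlapped, and ATP8 did not pass (log2 fold change -1.17, SE 0.38, adjusted p = 0.0718).

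The groups did not overlap for 12 of the 13 transcripts, where 14.2% of all genes had CR libraries wholly below control. The makeup of the mitochondrial RNA also differed. Of all mitochondrial counts, COX1 took 26% in SkM controls and 29.1% in SkM CR, and ND2 took 6.03% and 4.57%. Leaving out SkM CR replicate 2 lowered the number of called transcripts to 9, and every other library left out gave 10 to 12. In 9 other ways of processing the data 12 were called.

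**Figure D2:**
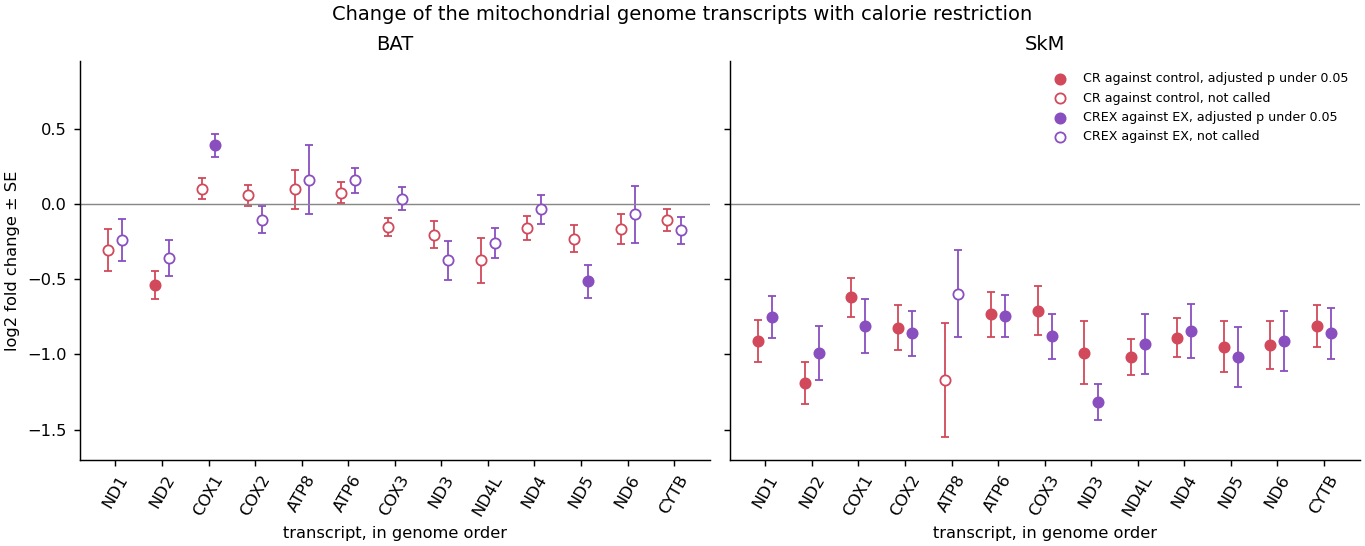
Log2 fold changes with standard errors of the 13 mitochondrial genome transcripts in genome order, for CR against control (red) and CREX against EX (purple), in BAT and SkM. Filled points had an adjusted p under 0.05. In SkM all points but ATP8 are filled and lie between -0.62 and -1.32, while in BAT only ND2, COX1 and ND5 are filled.

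For the Mrp genes in SkM under CR, 0 of 77 were called by edgeR and 0 by DESeq2, 5 had an unadjusted p under 0.05, and the smallest adjusted p was 0.0739. Log2 fold changes ran from -0.44 to 0.28, with 52 genes below 0 and 25 above, and the split of all genes is not given here. The CR libraries of 2 of the 77 genes lay wholly below control, beside 14.2% of all genes. Mrpl42, the most abundant Mrp gene of SkM, read 251.9, 180.3, 174.4 and 142.8 CPM in controls and 234.5, 167.2 and 152.4 CPM under CR. The absence of calls was not firm. Without SkM CR replicate 1, 5 Mrp genes were called, and 2 without SkM control replicate 4. When the replicate numbers were fitted as a block, 15 were called, all lower. The numbers of all genes called in these fits are not given.

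Markers of other cells and RNA classes were read for the same contrast. Under CR the summed muscle fibre markers were 167700 to 233000 CPM, against 135100 to 154100 CPM in SkM controls, and 3 of the 12 rose. The slow fibre markers summed to 1740 to 2099 CPM under CR and 1126 to 2159 CPM in controls, which overlapped, and 2 of 9 rose. Of the endothelial markers 4 of 7 fell and of the fibroblast markers 3 of 7 fell. Beside these marker counts, 6.29% of all genes rose and 7.67% fell. Long RNAs retained in the nucleus summed to 847 to 1555 CPM under CR and 733.1 to 877.9 CPM in controls, which also overlapped. Their part in the change of the mitochondrial transcripts was not tested, except that 12 transcripts were still called with the slow fibre level as a covariate.

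Restriction in trained mice (CREX against EX) used none of the libraries above. In SkM the same 12 mitochondrial transcripts fell, with log2 fold changes from -0.74 for ATP6 to -1.32 for ND3 and a median of -0.86 over the 13. All 12 lay beyond 1.5-fold, where 5.17% of all genes fell that far, and for all 12 the CREX libraries lay wholly below EX, as for 14.5% of all genes. Of the Mrp genes 9 of 77 fell and none rose, at a median of -0.16, which was 0.00 with library totals in place of TMM. The background was 6.96% of genes lower and 6.62% higher.

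ND3, a small membrane subunit of complex I, read 3742, 3824, 4222 and 4016 CPM in EX and 1597, 1438 and 1710 CPM in CREX. It fell by 1.32 on the log2 scale (SE 0.12, adjusted p = 0.00112) and was called in all 16 alternatives. ND5, the largest subunit of the set, fell by 1.02 (adjusted p = 0.0159) and ND2 by 0.99 (adjusted p = 0.0123). COX1 read 103200, 99510, 98240 and 96650 CPM in EX and 75220, 45150 and 49720 CPM in CREX, so that 1 CREX library stood well above the others. Its log2 fold change was -0.81 (SE 0.18, adjusted p = 0.0232). COX2, COX3 and CYTB changed by -0.86, -0.88 and -0.86, with adjusted p of 0.0101, 0.0101 and 0.0144. ND1 (-0.75), ND4 (-0.85), ND4L (-0.93) and ND6 (-0.91) were also lower, with adjusted p of 0.0133, 0.0183, 0.0198 and 0.021. ATP8 had a log2 fold change of -0.60 (SE 0.29, adjusted p = 0.193) and overlapped between groups.

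Of the large subunit genes 7 of 48 fell and of the small subunit genes 2 of 29, beside 6.96% of all genes. The subunits were not tested against each other. Mrpl14, which lies on the face of the large subunit that meets the small one, read 53.03, 46.44, 51.7 and 54.31 CPM in EX and 32.37, 25.7 and 31.92 CPM in CREX. The groups were far apart, with a log2 fold change of -0.77 (SE 0.11, adjusted p = 0.00693). Mrps36 keeps a ribosomal name but is known as a subunit of the 2-oxoglutarate dehydrogenase complex of the citric acid cycle. It read 41.31, 38.21, 42.8 and 41.5 CPM in EX and 29.54, 22.91 and 29.9 CPM in CREX (log2 fold change -0.58, adjusted p = 0.0161). Mrpl34 (-0.52) and Mrpl54 (-0.45), both of the large subunit, followed with adjusted p of 0.0296 and 0.0337. Mrps9, a small subunit protein with a bacterial counterpart, read 26.56, 26.59, 25.58 and 24.04 CPM in EX and 22.84, 13.3 and 13.76 CPM in CREX (log2 fold change -0.63, SE 0.18, adjusted p = 0.0492). Only Mrpl14 and Mrps9 passed 1.5-fold, and Mrpl16, Mrpl3, Mrpl12 and Mrpl28 completed the 9. The libraries of 22 Mrp genes lay wholly below EX, which is 22 of 77 beside 14.5% of all genes.

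**Figure D3:**
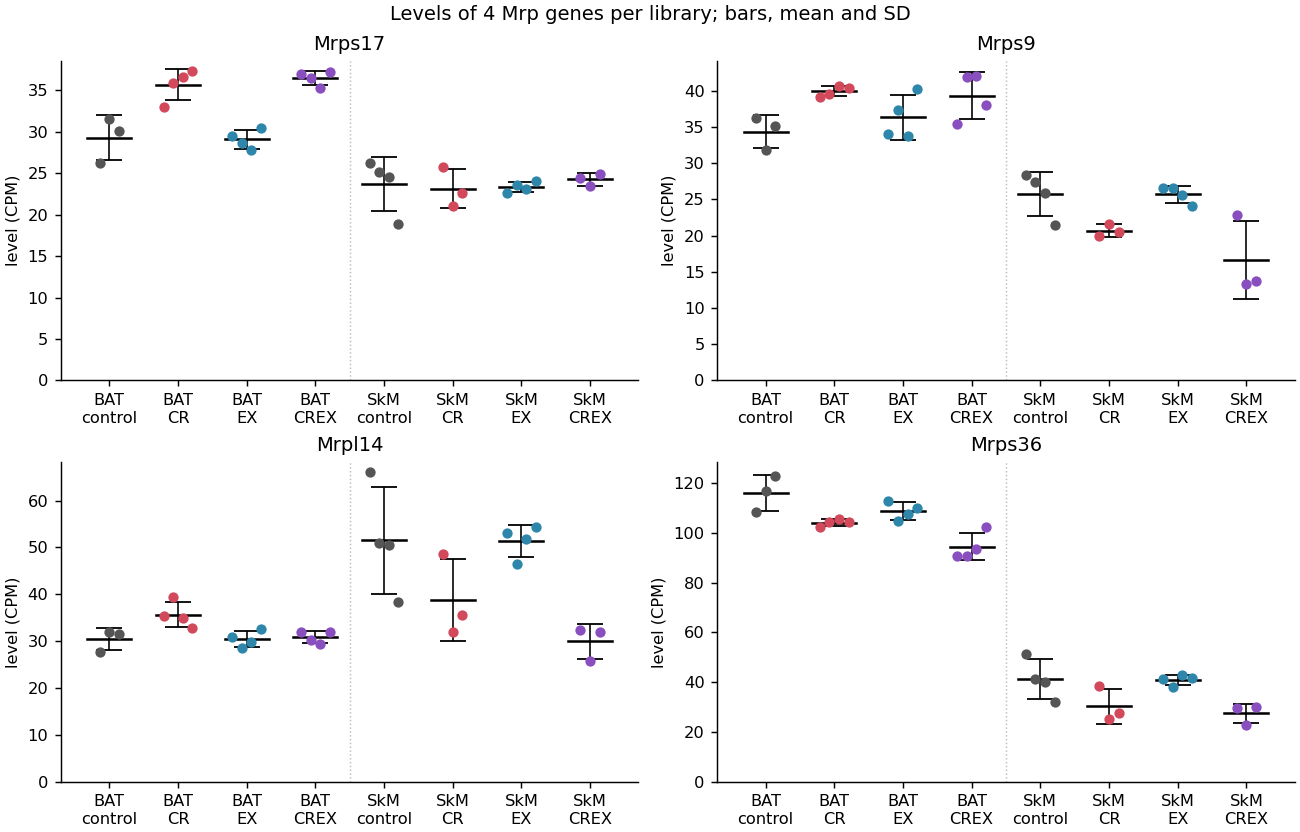
Levels (CPM, scaled within each tissue) of Mrps17, Mrps9, Mrpl14 and Mrps36 in all 29 libraries, by group, with the mean and SD in black. Mrps17 is higher in the BAT CR and CREX libraries (32.94 to 37.26 CPM) than in all other BAT libraries, and Mrpl14 is lower in SkM CREX (25.7 to 32.37 CPM) than in SkM EX.

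Markers of several cell types differed between these groups. The 9 slow fibre markers summed to 657, 105 and 47.9 CPM in CREX replicates 1, 2 and 3 and to 408.6 to 2055 CPM in EX. CREX replicate 1, the library with the most slow fibre RNA of its group, also had the largest mitochondrial share, 27.3%. CREX replicates 2 and 3 stood in the other order, at 18.45% and 19.59%. EX replicate 1, with the least slow fibre RNA of its group at 408.6 CPM, had the largest share there, 35.7%. The endothelial markers summed to 131.5 to 271.4 CPM in CREX and 271.2 to 353.8 CPM in EX, and 3 of 7 fell. The fibroblast markers summed to 256.6 to 288.8 CPM and 283.7 to 446.4 CPM, and 3 of 7 fell. Beside these marker counts, 6.96% of all genes fell. Long nuclear RNAs summed to 1361 to 1696 CPM in CREX, wholly above 946.4 to 1324 CPM in EX, with 0 of 4 called by edgeR and 1 at an unadjusted p under 0.05. The part of the endothelial, fibroblast and nuclear RNAs in the result was not tested.

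With the slow fibre level as a covariate 1 mitochondrial transcript, ND3, and 0 Mrp genes were called. The number of all genes called in that fit is not given, so the loss is not read as particular to these members. With CREX replicates 2 and 3 left out 4 and 1 were called, in a fit with a single CREX library that was assumed to vary like the EX libraries, so that lost calls there say nothing about slow fibres. The median log2 fold change of the 13 transcripts lay between -1.08 and -0.50 over 16 alternatives, and none of the 12 called transcripts changed direction in any of these. Without CREX replicate 2 alone 3 transcripts and 1 Mrp gene were called. Without CREX replicate 3 the counts were 7 and 5, without EX replicates 2 and 3 they were 6 and 2 and 7 and 2, and without CREX replicate 1 the Mrp count was 22. Without EX replicates 1 and 4 the Mrp counts were 3 and 2. In CREX against EX the slow fibre level and the group largely went together, so their parts cannot be told apart. The CR libraries, which belong to the other comparison, held 1740 to 2099 CPM of these markers, inside the range of the controls.

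**Figure D4:**
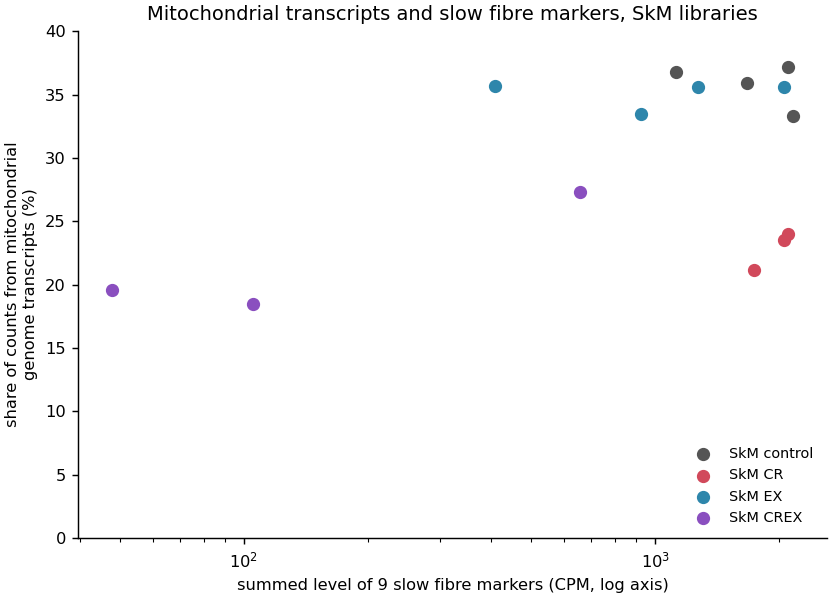
Share of counts from the 13 mitochondrial genome transcripts (%) against the summed level of 9 slow fibre markers (CPM, log axis) in the 14 SkM libraries. The 3 CR libraries lie below 24% at 1740 to 2099 CPM, the 2 CREX libraries with 105 and 47.9 CPM lie below 20%, and the EX library with 408.6 CPM lies above 35%.

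The nuclear partners were read beside both sets. In SkM under CR alone, 0 of 36 nuclear complex I subunits were called by edgeR, with 3 at an unadjusted p under 0.05, and 2 of 39 nuclear subunits of complexes III to V fell, among them Cox7a1, the muscle form of a complex IV subunit (log2 fold change -0.71, adjusted p = 0.0395). In SkM CREX against EX, 14 of 36 and 21 of 39 fell and none rose, with Cox7a1 at -1.18 (adjusted p = 0.00964), Cox4i1 at -0.72 and Ndufb2 at -0.73. Of the cytosolic ribosomal proteins, which serve the other ribosome of the cell, 3 of 75 rose under CR and 13 of 75 in CREX. The shares of all genes were 7.67% lower and 6.29% higher under CR and 6.96% lower and 6.62% higher in CREX, so that the counts of 2 of 39 and 3 of 75 lay below them. Without the TMM factors the median of all genes moved by 0.14 in the CR and 0.16 in the CREX comparison, and the 12 transcripts were called in both.

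Factors that make, process and read mitochondrial RNA were counted beside the same shares of all genes, 7.67% lower under CR and 6.96% lower in CREX. Of 16 genes for mitochondrial DNA replication, transcription and packaging, 1 fell under CR in SkM, the topoisomerase Top1mt (log2 fold change -0.45, adjusted p = 0.0276). In CREX against EX 2 fell, Mterf2 (-0.97, adjusted p = 0.0168) and Tfam. Tfam read 30.14, 29.03, 26.8 and 29.07 CPM in EX and 23.51, 22.66 and 21.22 CPM in CREX, with no overlap (log2 fold change -0.36, SE 0.09, adjusted p = 0.0303). Polrmt did not pass in SkM CR (0.24, adjusted p = 0.163). Of 26 RNA processing and stability genes, Mrm1, which methylates the large ribosomal RNA, fell in both SkM comparisons (-0.67 and -0.68, adjusted p = 0.0213 and 0.0271). Fastkd5, needed to process precursor RNA, rose in CREX (0.61, adjusted p = 0.0135), where Nsun4, a ribosome assembly factor, fell (-0.41, adjusted p = 0.0417). Lrpprc, which stabilises mitochondrial messages, had a log2 fold change of -0.40 under CR and did not pass (adjusted p = 0.0928).

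Of 32 translation factors 2 fell and 0 rose under CR in SkM, and 4 fell and 1 rose in CREX against EX, where 7.67% and 6.96% of all genes fell. Cars2, the mitochondrial cysteine tRNA ligase, fell in both SkM comparisons (log2 fold change -0.55 in each, adjusted p = 0.0136 and 0.0115). Qrsl1, part of the amidotransferase that makes glutamine tRNA, also fell in both (-0.38 and -0.51), and Tsfm, an elongation factor, fell in CREX (-0.56, adjusted p = 0.0238). Of 20 ribosomal proteins and assembly factors without the Mrp symbol, 0 passed in edgeR under CR, with 1 at an unadjusted p under 0.05, and Nsun4 alone in CREX. Among 13 transcriptional regulators of mitochondrial biogenesis, 5 fell and 1 rose under CR in SkM and 3 fell in CREX. Ppargc1b, a coactivator of mitochondrial biogenesis, read 13.43, 20.06, 15.79 and 21 CPM in controls and 5.879, 8.378 and 7.637 CPM under CR (log2 fold change -1.26, adjusted p = 0.00177). In CREX it was lower by 1.94 on the log2 scale than in EX (adjusted p = 0.00153). Nr1d1, a repressor of the circadian clock, fell by 2.03 and 2.10 (adjusted p = 0.00056 and 0.00112), and Myc rose under CR (1.85, adjusted p = 0.00101).

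In BAT the same question gave another picture. In BAT CR against control 1 of 13 mitochondrial transcripts fell and none rose, at a median of -0.16, while 9 of 77 Mrp genes rose and none fell, at a median of 0.10. The background was 9.99% of genes higher and 10.8% lower. The Mrp calls of 9 in 77 were thus close to the share of all genes that rose. Of the 77 Mrp genes 68 had a positive log2 fold change. That count stands without the share of all genes and is not read as a rise of the set. In 27 of the 77 the CR libraries lay wholly above control, beside 16.6% of all genes.

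ND2 was the transcript that fell. It read 23290, 24000 and 23900 CPM in BAT controls and 18770, 13580, 16730 and 16220 CPM under CR, with no overlap (log2 fold change -0.54, SE 0.09, adjusted p = 0.00309). It was called in all 16 alternatives. COX1 read 114400, 109000 and 108300 CPM in controls and 130800, 111000, 115600 and 117000 CPM under CR, and overlapped (log2 fold change 0.10, adjusted p = 0.314). ND1 (-0.31, adjusted p = 0.146) and COX3 (-0.15, adjusted p = 0.0881) were lower in every CR library than in every control without passing. Of the mitochondrial counts in BAT, COX1 took 24.4% in controls and 27.3% in CR, and ND2 5.25% and 3.75%. Without BAT CR replicate 1 the number of called transcripts was 4.

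The Mrp genes that rose in BAT did so by small amounts, 1.16-fold to 1.24-fold, none beyond 1.5-fold. Mrpl2, a protein near the catalytic centre of the large subunit, read 46.46, 48.66 and 51.07 CPM in controls and 60.76, 58.23, 58.39 and 58.14 CPM under CR. The CR libraries lay together above the controls (log2 fold change 0.27, SE 0.06, adjusted p = 0.0141). Mrps35, a small subunit protein, read 38.2, 40.49 and 42.45 CPM in controls and 54.43, 49.39, 45.9 and 51.27 CPM under CR (log2 fold change 0.32, SE 0.08, adjusted p = 0.0147). Mrpl51 (0.31) and Mrps25 (0.23) followed with adjusted p of 0.0177 and 0.0199. Mrps17, a small subunit protein with a bacterial counterpart, read 26.27, 31.51 and 30.07 CPM in controls and 32.94, 35.86, 36.59 and 37.26 CPM under CR (log2 fold change 0.29, adjusted p = 0.0337). Mrpl38, Mrps27, Mrpl46 and Mrps9 completed the 9.

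These BAT calls hung on single libraries. The Mrp count was 0 without BAT control replicate 1, 1 without control replicate 2, 4 without control replicate 3, 5 without CR replicate 1 and 2 without CR replicate 4. It was 0 with the replicate numbers as a block. Muscle fibre markers summed to 858.6, 108.2 and 47.65 CPM in BAT controls and 59.55, 92.2, 1772 and 934.7 CPM in BAT CR, with 0 of 12 called by edgeR and 0 at an unadjusted p under 0.05. With only the libraries poor in muscle RNA, control replicates 2 and 3 and CR replicates 1 and 2, 3 mitochondrial transcripts and 1 Mrp gene were called. Of the fibroblast markers 5 of 7 fell, of the macrophage markers 3 of 8, of the endothelial markers 3 of 7 and of the brown adipocyte markers 2 of 12. Beside these marker counts, 10.8% of all genes fell. The part of these cell types in the Mrp changes was not tested.

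In BAT CREX against EX, which shares no library with the comparison above, COX1 rose and ND5 fell. COX1 read 106000, 103300, 92760 and 92220 CPM in EX and 134100, 129500, 134500 and 120300 CPM in CREX, with no overlap (log2 fold change 0.39, SE 0.08, adjusted p = 0.0181). ND5 read 19910, 17920, 15010 and 15100 CPM in EX and 10760, 14030, 11640 and 11350 CPM in CREX (log2 fold change -0.51, SE 0.11, adjusted p = 0.0255). ND2 was at -0.36 and did not pass (adjusted p = 0.0886). Both calls were lost without CREX replicate 1 or CREX replicate 3, and ND5 was also lost without CREX replicate 4, EX replicate 1 or EX replicate 2. The background was 3.71% of genes higher and 4.3% lower.

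Of the Mrp genes, 1 of 77 rose, Mrps17, which read 29.42, 28.63, 27.73 and 30.42 CPM in EX and 36.92, 36.44, 35.26 and 37.23 CPM in CREX. The groups were well apart (log2 fold change 0.32, SE 0.06, adjusted p = 0.0115). Mrps17 is 1 of the 9 Mrp genes that rose in CR against control and the single one here, where it lost its call only with library totals in place of TMM. The median of the 77 was -0.03. Muscle fibre markers summed to 51.12 to 4741 CPM in EX and 1278 to 7436 CPM in CREX. Fibroblast markers summed to 298.7 to 1065 CPM in EX and to 183.1 to 202.6 CPM in CREX, with no overlap, and 1 of 7 fell. Brown adipocyte markers summed to 13050 to 14570 CPM in EX and 10810 to 13310 CPM in CREX, and 2 of 12 fell. Beside these marker counts, 4.3% of all genes fell. The part of these cell types in the COX1, ND5 and Mrps17 calls was not tested.

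Partners in BAT moved in both directions, beside 9.99% of all genes higher and 10.8% lower under CR. Under CR Polrmt, the mitochondrial RNA polymerase, rose from 24.21, 24.99 and 23.18 CPM to 30.34, 30.18, 30.95 and 29.74 CPM (log2 fold change 0.33, SE 0.07, adjusted p = 0.00625). In all 3 of the 16 replication and transcription genes rose and 1, the exonuclease Mgme1, fell (-0.25, adjusted p = 0.0401). Of 26 RNA processing genes 6 rose and none fell. The largest change among those named was that of Hsd17b10, a subunit of mitochondrial RNase P and a fatty acid and steroid dehydrogenase, with a log2 fold change of 0.97 under CR (adjusted p = 0.00174) and 0.68 in CREX against EX (adjusted p = 0.0116). Of 20 ribosomal proteins and assembly factors without the Mrp symbol 4 rose, among them Oxa1l, the insertase that receives new chains at the inner membrane (0.31, adjusted p = 0.00653), Rbfa (0.33) and Malsu1 (0.44). In CREX against EX 0 of these 20 passed in edgeR, with 3 at an unadjusted p under 0.05.

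Among the 32 translation factors in BAT, Mtrf1l, a release factor, rose (0.59, adjusted p = 0.0259) and Cars2 fell (-0.44, adjusted p = 0.0157) under CR, and Taco1, which aids COX1 synthesis, fell in CREX (-0.40, adjusted p = 0.0465). Of the 13 regulators, Esrra, a nuclear receptor for energy metabolism, rose under CR (0.34, adjusted p = 0.00542), while Nr1d1 (-1.90) and Nrf1 (-0.50) were among the 3 that fell. Of nuclear complex I subunits 5 of 36 rose under CR, among them Ndufa11, Ndufs3 and Ndufa9, and 2 of 40 of complexes III to V rose, where 9.99% of all genes rose. In CREX against EX, 0 of 36 complex I subunits passed in edgeR, with 5 at an unadjusted p under 0.05.

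**Figure D5:**
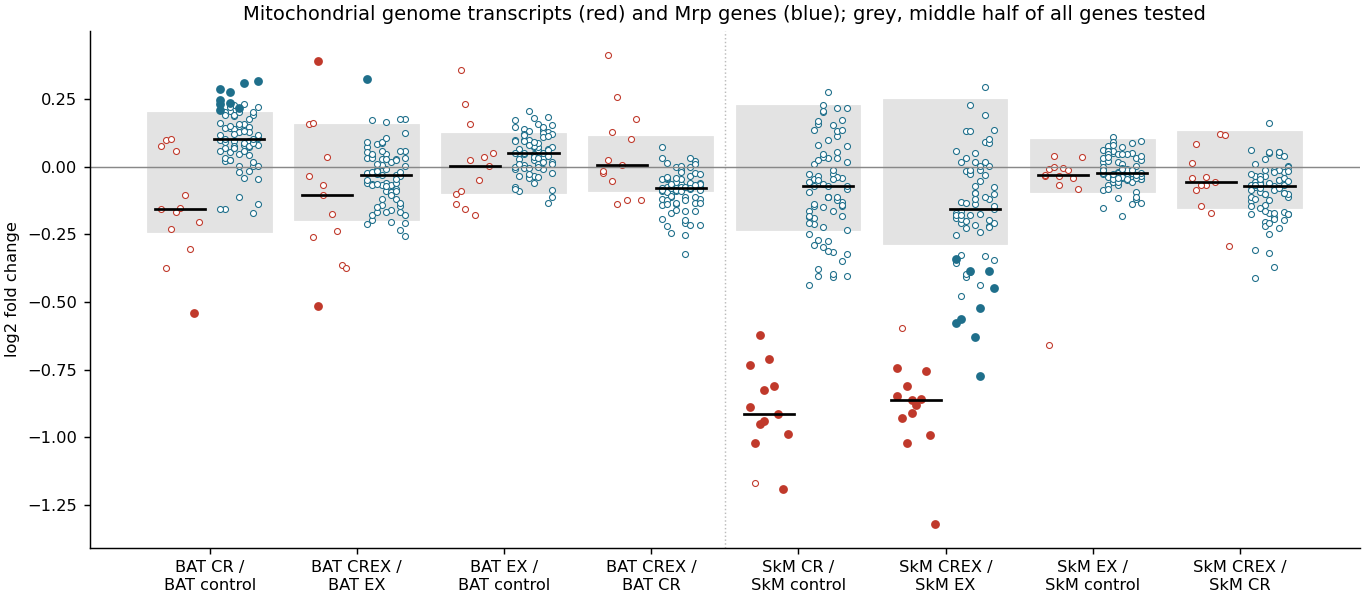
Log2 fold changes of the 13 mitochondrial genome transcripts (red) and the 77 Mrp genes (blue) in 8 comparisons. Filled points had an adjusted p under 0.05, black bars are medians and grey boxes span the middle 50 percent of all genes tested. The red points drop to medians of -0.91 and -0.86 in the SkM comparisons of restriction while the blue medians stay at -0.07 and -0.16.

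Training by itself gave no calls in either set. The shares of all genes in this paragraph use the adjusted p, so counts at an unadjusted p stand without a background. In BAT EX against control 0 of 90 members passed in edgeR or DESeq2, 2 had an unadjusted p under 0.05, and 0% of all genes passed. In BAT CREX against CR 0 of 90 passed, with 1 mitochondrial transcript and 13 Mrp genes at an unadjusted p under 0.05, and 0.00763% of all genes passed. In SkM EX against control 0 of 90 passed by either tool with 0 at an unadjusted p under 0.05, and 0.093% of all genes passed. In SkM CREX against CR 0 of 90 passed with 0 at an unadjusted p under 0.05, and 0% of all genes passed. Medians lay between -0.06 and 0.01 for the mitochondrial transcripts and between -0.08 and 0.05 for the Mrp genes. ND2, as an example, read 20440, 25180, 23640 and 20200 CPM in SkM controls and 21310, 21570, 21160 and 20660 CPM in SkM EX.

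The effect of restriction was also compared between trained and sedentary mice. In BAT 0 of 90 members differed by edgeR or DESeq2, where 0% of all genes passed. At an unadjusted p under 0.05 stood 2 transcripts and 14 Mrp genes, with no share of all genes at that threshold given. In SkM 0 of 90 differed by either tool, 0 had an unadjusted p under 0.05, and 0% of all genes passed. The 9 Mrp calls in trained and 0 in sedentary SkM are therefore not shown to differ. The median difference for the Mrp genes was -0.13 in BAT and -0.05 in SkM, on the log2 scale.

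Restriction without training was then compared between tissues, as the log2 fold change in SkM minus that in BAT. For 8 of 13 mitochondrial transcripts the change was lower in SkM, from -0.66 for ND2 to -0.89 for COX2, and for none was it higher. COX1 differed by -0.73 (SE 0.13, adjusted p = 0.00272), ATP6 by -0.81 (adjusted p = 0.00586), CYTB by -0.71 (adjusted p = 0.00744) and ND4 by -0.74 (adjusted p = 0.00542). ND5 (-0.73) and ND6 (-0.78) had adjusted p of 0.04 and 0.0404. ND1, ND3, ND4L, COX3 and ATP8 did not pass, at -0.56 to -1.27. Of the Mrp genes Mrps9 (-0.54, SE 0.13, adjusted p = 0.0225) and Mrpl45, which holds the ribosome at the inner membrane (-0.46, adjusted p = 0.0398), were lower in SkM. As background, 3.93% of 14369 genes were lower and 3.65% higher. Leaving out any 1 of BAT CR replicates 1 and 3, the 3 BAT controls or SkM control replicates 2 and 3 gave 5 transcripts, and the Mrp count ran from 0, without BAT control replicate 2 or SkM control replicate 2, to 10, without SkM CR replicate 1. With DESeq2 13 transcripts and 5 Mrp genes were called, and with no filter on low counts 2 and 1.

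Finally the control tissues were set against each other. In SkM control against BAT control 4 mitochondrial transcripts were higher in SkM (ND1, ND5, ND6 and ATP8) and 3 were lower (COX2, CYTB and ND3), where 37.7% of 13797 genes were higher and 37.2% lower. These directions are relative to the TMM scale. With library totals the median of all genes moved by -0.33 and the split was 2 higher and 7 lower. Shares within the mitochondrial RNA do not depend on that scale. ND1 took 6.65% of mitochondrial counts in BAT controls and 9.71% in SkM controls, ND5 3.22% and 4.83%, ND6 0.465% and 0.739%, COX2 12.3% and 9.8% and CYTB 12.1% and 9.34%. ND1 differed by 0.54 (SE 0.13, adjusted p = 0.00222) and CYTB by -0.39 (adjusted p = 0.0111) on the log2 scale. Without BAT control replicates 1, 2 or 3 in turn 4, 4 and 3 transcripts were called.

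Of the 77 Mrp genes 11 were higher and 29 lower in SkM, beside 37.7% of all genes higher and 37.2% lower. The lower count was thus near the share of all genes. With library totals the Mrp counts were 5 and 56. Mrps2, a small subunit protein, read 64.99, 73.25 and 72.4 CPM in BAT controls and 18.03, 20.52, 21.44 and 20.79 CPM in SkM controls, each scaled within its tissue (log2 fold change -1.52, SE 0.09, adjusted p = 2e-08). Mrpl39 (-1.48), Mrpl10 (-1.21) and Mrps35 (-1.47) were also lower in SkM, with adjusted p of 2.71e-08, 1.23e-07 and 8.64e-07. Mrpl23 was higher in SkM, at 86.24, 67.99, 76.31 and 52.11 CPM against 32.78, 28.82 and 33.99 CPM in BAT (log2 fold change 1.42, SE 0.16, adjusted p = 8e-06). Mrpl14 (1.03), Mrpl37 (0.49) and Mrps28 (0.74) were higher with adjusted p of 0.000142, 0.000192 and 0.000303. Members of 1 ribosome thus stood at unlike ratios between the tissues. The most abundant Mrp genes were Mrpl30, Mrpl42 and Mrpl34 in BAT controls, with means of 134.9, 123.9 and 118 CPM, and Mrpl42, Mrpl12 and Mrpl51 in SkM controls, with 187.4, 85.12 and 82.34 CPM. These are levels per gene and not per length.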

How the data were processed

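RNA was sequenced as paired-end reads on a BGISEQ-500. The authors deposited estimated counts per gene symbol (RSEM expected counts, not normalized), after trimming with trim-galore and alignment to mm10 with STAR 2.7.10a. RSEM 1.2.28 is named in the submitters' processing notes. The annotation, library kit and strand setting are not given in the sources used here.

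Counts were rounded and tested with edgeR 4.0.16 in R 4.3.3 (TMM factors, filterByExpr, robust quasi-likelihood fit), 1 fit per pair of groups, with 2 by 2 fits for differences of effects. P-values were adjusted over all genes tested (threshold 0.05). Genes with fold changes above 1.5, DESeq2 1.42.0, RLE size factors, library sizes without mitochondrial rows, no filter, 1 fit over all groups, a replicate block, muscle or slow fibre scores as covariates and each library left out were the alternatives. Library totals without TMM and the subsets poor in muscle or slow fibre RNA were added after seeing the data. The scripts were tested on simulated data with 200 changed genes. No pair of libraries was identical. Excel dates replaced 27 symbols and 2 symbols were duplicated.

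Members and lists were chosen with earlier results of these data known. All 13 mitochondrial transcripts are named. Mrp genes are named as the 4 smallest p per direction among those called in a comparison, the 3 most abundant per tissue and those with a library that stood apart, and of each list up to 3 by p. Beyond that rule, Mrpl16, Mrpl3, Mrpl12, Mrpl28, Mrps17, Mrpl38, Mrps27, Mrpl46 and Mrps9, the members that completed sets of 9, were named after their values were seen. Sequences are from GENCODE vM21 transcripts (ATP8) and RefSeq GRCm38.p6 (promoters).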

Additional observations from a re-analysis of the deposited data

Results flagged for a closer look

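Within groups of 4, 160 sets of values (2 shares and 30 named members in 5 groups) were checked for a library that stood apart by Dixon's criterion, and 9 were flagged, where chance alone flags about 1 in 20. SkM EX replicate 4 had the lowest share of mitochondrial counts of its group, 33.49%, against 35.59% in the next library. BAT CR replicate 1 had the highest CYTB, 57120 CPM against 49470 CPM, and the highest Mrpl2, 60.76 CPM against 58.39 CPM. BAT CREX replicate 2 was highest for ND1, 31800 CPM against 24680 CPM, and for ND6, 3087 CPM against 1987 CPM. BAT CR replicate 3 was lowest for Mrpl51, 98.36 CPM against 109.9 CPM. BAT CREX replicate 3 was highest for Mrps25 at 44.3 CPM, SkM EX replicate 4 was highest for Mrpl34 at 44.34 CPM, and BAT EX replicate 3 was lowest for Mrpl10 at 82.31 CPM. BAT EX replicate 3 also held the highest summed fibroblast markers of BAT, 1065 CPM.

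The effect of restriction differed between tissues in the edgeR test of the difference itself for 10 members, all lower in SkM than in BAT. On the log2 scale the differences were -0.813 for ATP6, -0.729 for COX1, -0.886 for COX2, -0.711 for CYTB, -0.655 for ND2, -0.738 for ND4, -0.726 for ND5, -0.782 for ND6, -0.462 for Mrpl45 and -0.538 for Mrps9. ATP6 and COX2 were called in all 21 alternatives, COX1, CYTB and ND4 in 20 of 21, Mrps9 in 17, ND2 in 10, Mrpl45 in 8, ND6 in 7 and ND5 in 6.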

How the results depend on the processing

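No call of a member that was followed gene by gene reversed its direction. The 40 Mrp calls between the control tissues were not followed in this way. The training comparisons and the differences of the restriction effect by training gave 0 calls under every alternative run. In BAT CR, the counts of mitochondrial transcripts (1) and Mrp genes (9) became 3 transcripts with DESeq2, 3 and 4 with library totals, 3 and 1 in the libraries with little muscle RNA and 0 and 0 beyond 1.5-fold. In BAT CREX against EX (2 and 1) they became 2 Mrp genes with DESeq2 (1 higher, 1 lower), 4 and 6 with 1 fit over all groups (1 Mrp gene higher, 5 lower), 4 transcripts and 1 Mrp gene, a lower one, with library totals and 0 and 0 beyond 1.5-fold. In SkM CR (12 and 0) 1 Mrp gene was called, as higher, with the slow fibre covariate. In SkM CREX (12 and 9) the counts were 5 Mrp genes with 1 fit over all groups, 2 with library totals, 1 and 0 with the slow fibre covariate, 4 and 1 without the libraries poor in slow fibre RNA, which left 1 CREX library and is no test of slow fibre content, and 2 Mrp genes beyond 1.5-fold. In SkM against BAT control (7 and 40) they were 3 transcripts with no filter, 61 Mrp genes with library totals, and 2 and 18 beyond 1.5-fold. For the tissue difference of the CR effect (8 and 2) they were 13 and 5 with DESeq2, 2 and 1 with no filter, 5 and 0 with library totals, and 0 Mrp genes beyond 1.5-fold. The numbers of all genes called under these alternatives are not given, and the causes were not tested.

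Leaving out 1 library at a time gave, for transcripts and Mrp genes, 1 to 4 and 0 to 10 in BAT CR, 0 to 2 and 1 to 1 in BAT CREX, 9 to 12 and 0 to 5 in SkM CR, 3 to 12 and 1 to 22 in SkM CREX, 3 to 7 and 31 to 46 between control tissues, and 5 to 10 and 0 to 10 for the tissue difference of the CR effect.

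Replicate numbers gave no sign of pairing: correlations of same-numbered libraries averaged -0.284 to 0.14 and in no comparison were all above 0.1. Each library was taken relative to the mean of its group of 3 or 4, so these correlations cannot exclude pairing. With the replicate block the Mrp count was 0 in BAT CR, 15 (all lower) in SkM CR, 3 in SkM CREX and 1 for the tissue difference. ATP8 had the fewest counts of the 13 transcripts (220 to 1149), and groups of 3 or 4 limit small changes such as those of the Mrp genes.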
